A study of Mus musculus with 3 samples.

Results

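The genes described are 6 of the 22698 genes in the files, the 3 members of the tyrosinase family that make melanin (*Tyr*, *Tyrp1* and *Dct*) and 3 genes for membrane proteins of the melanosome matrix and its biogenesis (*Pmel*, *Mlana* and *Gpnmb*). They were chosen by symbol from an mm9 annotation, and all 6 were found. The RNA came from melan-a cells, an immortalized line of mouse melanocytes that the labels give as C57BL/6J in background and as derived from Ink4a-ARF-/- mice. The cells received no treatment and were cultured in RPMI medium with 10% serum, 200 nM of the phorbol ester TPA and 200 pM cholera toxin. There is a single group of 3 replicates, labelled 1, 3 and 4, so levels can be compared between genes and between replicates but not between conditions. In bulk RNA of this kind, fewer cells that express a gene and less RNA of that gene per cell cannot be told apart.

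Melanin is made in melanosomes, organelles of melanocytes and of the retinal pigment epithelium. Tyrosinase, encoded by *Tyr*, oxidizes tyrosine to dopaquinone and is the rate-limiting enzyme of the pathway. Dopachrome tautomerase (*Dct*) and tyrosinase-related protein 1 (*Tyrp1*) act on later intermediates of eumelanin, the black and brown pigment. Fragments of PMEL form the amyloid fibrils on which melanin is laid down, MLANA is a small membrane protein that binds PMEL, and GPNMB is a glycoprotein related to PMEL. MITF, the transcription factor that directs melanocyte differentiation, is known to activate several of these genes through a short promoter element termed the M-box, which has the E-box CATGTG at its centre.

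Promoter sequences are shown because the 3 enzyme genes shared this element while differing widely in level. RefSeq promoter windows, 250 bases before to 50 bases after an annotated start, were at hand for *Tyr*, *Tyrp1*, *Dct* and *Gpnmb*, from the GRCm38.p6 build. Each of the 4 sequences matched mm9 exactly at 1 place, and mm9 positions are given. The window of *Tyr* lies at chr7:94641973-94642272 on the minus strand, that of *Tyrp1* at chr4:80479867-80480166 on the plus strand, that of *Dct* at chr14:118451419-118451718 on the minus strand and that of *Gpnmb* at chr6:48986267-48986566 on the plus strand. Capitals mark the longest run of letters common to the windows of the 3 enzyme genes, and in *Gpnmb* the letters GCCNNNGGC of a TFAP2 site.
Tyr: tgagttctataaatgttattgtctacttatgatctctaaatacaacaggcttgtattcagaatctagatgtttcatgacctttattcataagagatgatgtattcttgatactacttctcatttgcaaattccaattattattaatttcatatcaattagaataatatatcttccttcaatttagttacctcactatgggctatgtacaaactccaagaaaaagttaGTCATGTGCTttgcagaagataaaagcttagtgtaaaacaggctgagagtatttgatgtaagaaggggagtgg
Tyrp1: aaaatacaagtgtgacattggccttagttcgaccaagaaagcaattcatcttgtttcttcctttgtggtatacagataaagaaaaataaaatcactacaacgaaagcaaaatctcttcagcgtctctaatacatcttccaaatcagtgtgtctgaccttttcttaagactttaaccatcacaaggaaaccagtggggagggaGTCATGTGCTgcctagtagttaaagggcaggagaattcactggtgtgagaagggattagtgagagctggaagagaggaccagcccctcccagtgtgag
Dct: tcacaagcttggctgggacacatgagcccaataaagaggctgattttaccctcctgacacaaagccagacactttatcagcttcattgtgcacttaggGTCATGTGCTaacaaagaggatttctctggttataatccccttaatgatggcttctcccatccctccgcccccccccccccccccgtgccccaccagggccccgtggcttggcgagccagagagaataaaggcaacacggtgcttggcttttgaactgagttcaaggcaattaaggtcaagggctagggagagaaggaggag
Gpnmb: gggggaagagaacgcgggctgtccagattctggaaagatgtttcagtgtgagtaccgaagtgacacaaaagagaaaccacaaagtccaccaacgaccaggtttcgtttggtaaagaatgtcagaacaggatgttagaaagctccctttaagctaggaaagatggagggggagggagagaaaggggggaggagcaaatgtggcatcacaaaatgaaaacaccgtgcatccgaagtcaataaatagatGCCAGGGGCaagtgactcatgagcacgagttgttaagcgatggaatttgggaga

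The run GTCATGTGCT, which is 10 bases long, occupied positions -23 to -14 in *Tyr*, -48 to -39 in *Tyrp1* and -152 to -143 in *Dct*, counted from the RefSeq start, with no position 0. It was found from these 3 windows. On either strand it occurred in 61 of 32851 RefSeq promoter windows (0.186%). The E-box CATGTG alone was in 3 of the 4 windows and in 14.2% of all windows, and with a T before it (TCATGTG) in 3 of the 4 and in 3.77% of all. *Dct* held a further TCATGTG on the opposite strand at -232 to -226. The other E-box searched, CACGTG, was in none of the 4 windows and in 7.15% of all. The TFAP2 letters GCCNNNGGC were in the *Gpnmb* window only, at -4 to 5, and in 16.6% of all windows, and the TATA box letters TATAAA were in the *Tyr* window only, at -243 to -238, and in 13.6% of all. The TFAP2 letters read the same on both strands. They are stricter than the consensus GCCNNNGG that the paper gives, which was not searched over all windows. The *Dct* window holds that shorter form on the opposite strand, as CCCGTGGC in the letters printed above. The annotated starts differ between sources, since the RefSeq start of *Tyr* lay 79 bases upstream and that of *Tyrp1* 90 bases downstream of the gene start in the mm9 annotation. The *Tyrp1* window therefore includes the first transcribed bases of that annotation, and its marked run lies downstream of that gene start. These matches describe letters and not binding.

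The proteins translated from the mm9 coding sequences fell into the same families. Tyrosinase had 533 residues, TYRP1 537 and DCT 517, and they shared 46.5% of aligned positions for TYRP1 and DCT, 38.9% for tyrosinase and TYRP1, and 37.8% for tyrosinase and DCT, gaps included. Each of the 3 held both signatures by which copper-binding sites of tyrosinases are recognized, which start at residues 202 and 383 of tyrosinase, 215 and 397 of TYRP1, and 211 and 389 of DCT. A match to these signatures describes residues and does not say which metal, if any, a protein binds. PMEL (626 residues) and GPNMB (574 residues) shared 28.2% of aligned positions and held no copper signature, and MLANA was the smallest protein at 113 residues. Letters of the acidic dileucine signal, the motif that sorts membrane proteins towards lysosomes and melanosomes, lay close to the C terminus in 3 proteins. Tyrosinase had 2 such matches there of 5 in the whole protein, and PMEL and GPNMB had 1 each of 2. DCT also held 1 match, not close to its C terminus, so the letters are not confined to these tails. The last match started 10 residues before the last residue of tyrosinase and of PMEL and 12 before that of GPNMB. Which match of tyrosinase acts in sorting was not tested. No run of 31 bases was shared between the transcripts of any pair of the 6 genes, so their reads can be told apart at that length.

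The values are FPKM, the reads of a gene divided by its length and by the size of the library, scaled between libraries by the trimmed mean of M values (TMM). They summed to between 358891 and 394507 per replicate. From the steps between low values, the scaled library sizes came to 54000000 reads for replicate 1, 47100000 for replicate 3 and 66300000 for replicate 4. Reads estimated from these sizes and the gene lengths, summed over genes, exceeded the library size in every replicate. The sizes and the lengths used therefore do not match fully, and the cause was not tested. The estimated reads per gene and the shares of reads given below are approximate for this reason. *Cdkn2a*, the locus named in the genotype, was listed at 16.49 to 24.32 FPKM. A value for the whole gene does not say which exons were read, so it does not check the deletion.

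*Tyrp1* was the most abundant of the 6 genes and *Tyr* the least, with a mean ratio of 45.7 between them in the deposited FPKM and of 23.7 per coding length. Of the 22698 genes, 5 of these 6 were among the highest 1.0% by mean FPKM, and *Tyr* was at rank 943. All 6 were among the highest 1000, a category that holds 4.41% of all genes. Together they accounted for 1.86% ± 0.21 of the summed FPKM (SD, n = 3), and for an estimated 1.75% ± 0.17 of the reads assigned to genes. For comparison, the median gene had a mean of 0.277 FPKM, and the highest 1000 began at 66.01 FPKM.

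**Figure D1:**
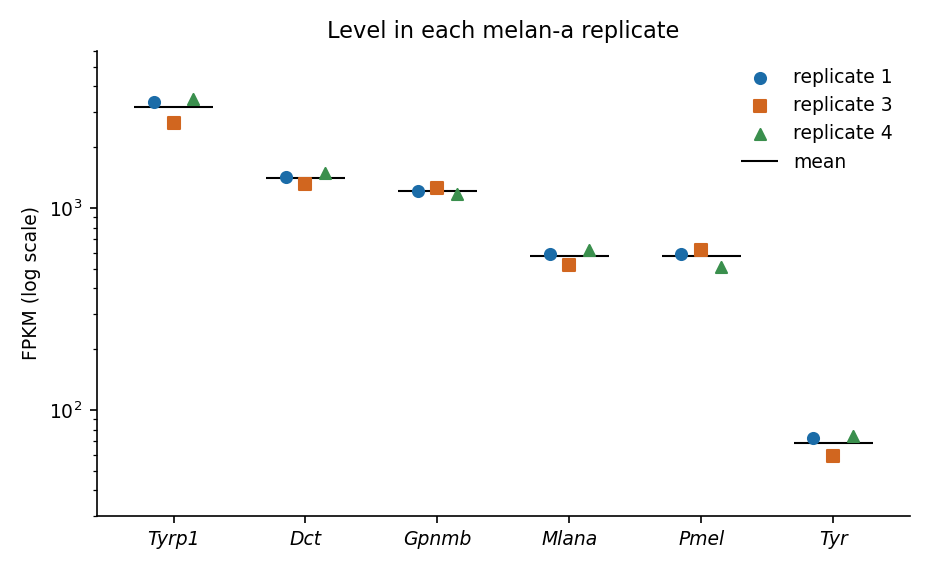
FPKM of the 6 genes in each melan-a replicate on a log axis, with the mean of the 3 replicates as a line. *Tyrp1* lies above and *Tyr* below the other 4 genes in every replicate, and *Mlana* and *Pmel* change places between replicates.

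*Tyrp1* (ENSMUSG00000005994), at 80480027 to 80497623 of chromosome 4 (mm9, plus strand), spans 17.6 kb with 8 exons in its longest coding transcript. Replicate 1 had 3331.02 FPKM, replicate 3 had 2647.8 and replicate 4 had 3452.01, for a mean of 3143.6 ± 433.6 (SD, n = 3). Replicates 1 and 4 were close to each other and replicate 3 was lower. *Tyrp1* ranked 7 of all genes by its mean, and between 6 and 10 in single replicates. Without the genes of the mitochondrial genome it ranked 2. An estimated 352700 to 647200 reads per replicate lay on this gene, which alone made up 45.0% of the summed mean FPKM of the 6 genes.

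*Dct* (ENSMUSG00000022129), which encodes the enzyme that converts dopachrome to its carboxylated indole, lies on the minus strand of chromosome 14 from 118412014 to 118451468 and has 8 exons. Replicates 1, 3 and 4 had 1430.51, 1307.95 and 1497.94 FPKM. *Dct* ranked 17 with its mean of 1412.1 ± 96.3 (SD, n = 3). As for *Tyrp1*, replicate 3 was the lowest and replicate 4 the highest. *Tyrp1* was higher than *Dct* in 3 of 3 replicates, by a mean ratio of 2.22 ± 0.17 (SD, n = 3).

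*Tyr* (ENSMUSG00000004651) lies on the minus strand of chromosome 7 from 94574910 to 94641943. It is the longest of the 6 loci at 67.03 kb, in only 5 exons. The level was 72.53, 59.2 and 74.43 FPKM in replicates 1, 3 and 4, for a mean of 68.7 ± 8.3 (SD, n = 3). Replicate 3 was again the lowest. At rank 943, *Tyr* sat just inside the highest 1000, at 1.04 times the value at which that category begins. Its ranks in replicates 1, 3 and 4 were 908, 1209 and 799, and without replicate 4 its rank was 1041, which leaves 5 of the 6 genes in the category. An estimated 15100 to 26600 reads per replicate lay on *Tyr*, a number at which counting alone gives a coefficient of variation (CV) of at most 0.815%, against 12.1% between replicates.

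The ratio of *Tyrp1* to *Tyr* was 45.9, 44.7 and 46.4 in replicates 1, 3 and 4. Its CV of 1.87% was the lowest of the 15 ratios between the 6 genes, whose CVs reached 22.5% for *Tyrp1* to *Pmel*. The CVs of the levels themselves were 13.8% for *Tyrp1* and 12.1% for *Tyr*. The ratio of *Dct* to *Mlana* was also steady, at 2.42, 2.51 and 2.41 in replicates 1, 3 and 4. The pairs were picked out after their values were seen. The ratios are of deposited values, with no allowance for GC content. With the median of genes of the same GC content subtracted, the log2 ratio of replicate 3 to 4 was -0.12 for *Tyrp1* and 0.39 for *Tyr*.

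Among the matrix genes *Gpnmb* was the highest. *Gpnmb* (ENSMUSG00000029816), on the plus strand of chromosome 6 from 48986517 to 49020928 with 11 exons, gave 1212.57, 1261.74 and 1173.5 FPKM in replicates 1, 3 and 4. The mean was 1215.9 ± 44.2 (SD, n = 3) at rank 21. It was the steadiest of the 6, with a CV of 3.64%, and the order of its replicates was the reverse of that of the 3 enzymes, with replicate 3 the highest.

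*Pmel* (ENSMUSG00000025359), on the plus strand of chromosome 10 from 128143314 to 128157294 with 11 exons, gave 592.43, 622.37 and 511.76 FPKM in replicates 1, 3 and 4, for a mean of 575.5 ± 57.2 (SD, n = 3) at rank 64. Like *Gpnmb*, it was highest in replicate 3 and lowest in replicate 4. Of its joined exons 98 bases are shared with exons of *Dgka* on the other strand, a gene at 3.92 ± 0.92 FPKM (SD, n = 3). The libraries were stranded, though the strand setting of the counting is not given in the sources used here. No exon of another annotated gene lay on any of the other 5 genes.

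*Mlana* (ENSMUSG00000024806), the shortest locus at 10.5 kb, lies on the plus strand of chromosome 19 from 29772411 to 29782938 in 5 exons. Replicates 1, 3 and 4 gave 590.99, 520.53 and 622.36 FPKM, for a mean of 578.0 ± 52.2 (SD, n = 3) at rank 63. Its replicates were ordered as in the enzymes, with replicate 3 the lowest. The 3 matrix genes together came to 2369.4 ± 53.7 FPKM and the 3 enzymes to 4624.5 ± 536.4 (SD, n = 3). The matrix sum varied less between replicates, but this did not hold gene by gene. The CVs were 3.64% for *Gpnmb*, 9.94% for *Pmel* and 9.02% for *Mlana*. They were 13.8% for *Tyrp1*, 12.1% for *Tyr* and 6.82% for *Dct*, which thus varied less than *Pmel* and *Mlana*.

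**Figure D2:**
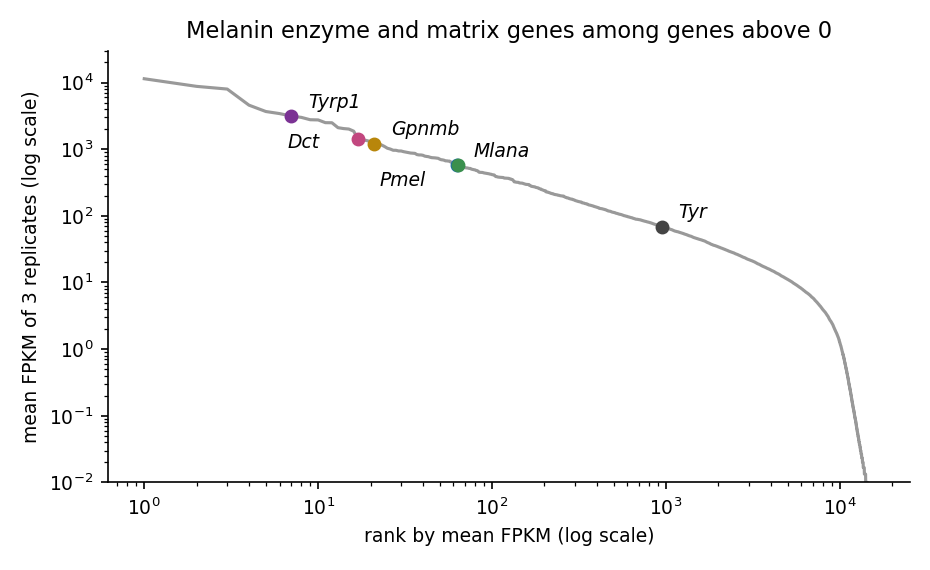
Mean FPKM of the 3 replicates against rank for all genes above 0, both on log axes, with the 6 genes marked. The 5 genes other than *Tyr* lie between ranks 7 and 64, and *Tyr* lies at rank 943.

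By mean level the order was *Tyrp1*, *Dct*, *Gpnmb*, *Mlana*, *Pmel* and *Tyr*. Each step was tested over the replicates as a difference in log2(FPKM + 1), with an exact two-sided sign-flip permutation test that cannot go below p = 0.25 with 3 replicates. No step could therefore pass a threshold, and the size is given against its spread. Nothing in the labels says that the replicates came from separate cultures, so such a p measures only the spread between these samples, which may be technical. *Tyrp1* exceeded *Dct* by 1.15 ± 0.11, *Gpnmb* exceeded *Mlana* by 1.08 ± 0.18 and *Pmel* exceeded *Tyr* by 3.05 ± 0.31 (log2 difference, SD, n = 3), each in 3 of 3 replicates (exact permutation p = 0.25, adjusted p = 0.3125 over 5 steps). These 3 steps were several times their SD.

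*Dct* exceeded *Gpnmb* by 0.21 ± 0.15 (log2 difference, SD, n = 3) in 3 of 3 replicates (exact permutation p = 0.25, adjusted p = 0.3125), and in replicate 3 the ratio was only 1.04. *Mlana* and *Pmel* differed by 0.0070 ± 0.27 (log2 difference, SD, n = 3), with *Mlana* higher in 1 of 3 replicates (exact permutation p = 1.0), so their order was not resolved. Without replicate 4 that difference was -0.13. Of the 15 pairs among the 6 genes, 14 had the same order in all replicates, and the exception was *Mlana* and *Pmel*.

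The order of the middle genes depended on the length by which reads are divided. Where transcripts of a gene differ, low values of other genes came closest to whole reads with the length of all exons joined, of the 4 lengths compared. This rested on 24 to 26 short genes per replicate, none as long as *Tyr* or *Gpnmb*. Their mean distance from whole reads was 0.132 to 0.158, against 0.185 to 0.224 with the longest transcript. The joined length is 5400 bases for *Tyr*, of which 29.6% is coding, and 4611 bases for *Gpnmb*, of which 37.4% is coding. For *Pmel* it is 2133 bases, of which 88.0% is coding. Per coding length, the means became 5518.4 ± 761.2 FPKM for *Tyrp1*, 3255.9 ± 118.4 for *Gpnmb*, 2261.6 ± 154.3 for *Dct*, 1062.2 ± 95.8 for *Mlana*, 653.7 ± 64.98 for *Pmel* and 232.1 ± 28.03 for *Tyr* (SD, n = 3). *Gpnmb* was then above *Dct* by 0.53 on the log2 scale, in place of below it. *Mlana* was above *Pmel* in 3 of 3 replicates, by 0.70. On the longest transcript the difference between *Dct* and *Gpnmb* was 0.07, with *Dct* higher in 2 of 3 replicates. *Tyrp1* stayed the highest and *Tyr* the lowest under each of the 3 lengths, but the distance to *Tyr* shrank. *Pmel* exceeded *Tyr* by 2.71 on the longest transcript and by 1.49 per coding length (log2 difference), and the ratio of *Tyrp1* to *Tyr* became 37.5 ± 0.7 and 23.7 ± 0.4 (SD, n = 3).

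**Figure D3:**
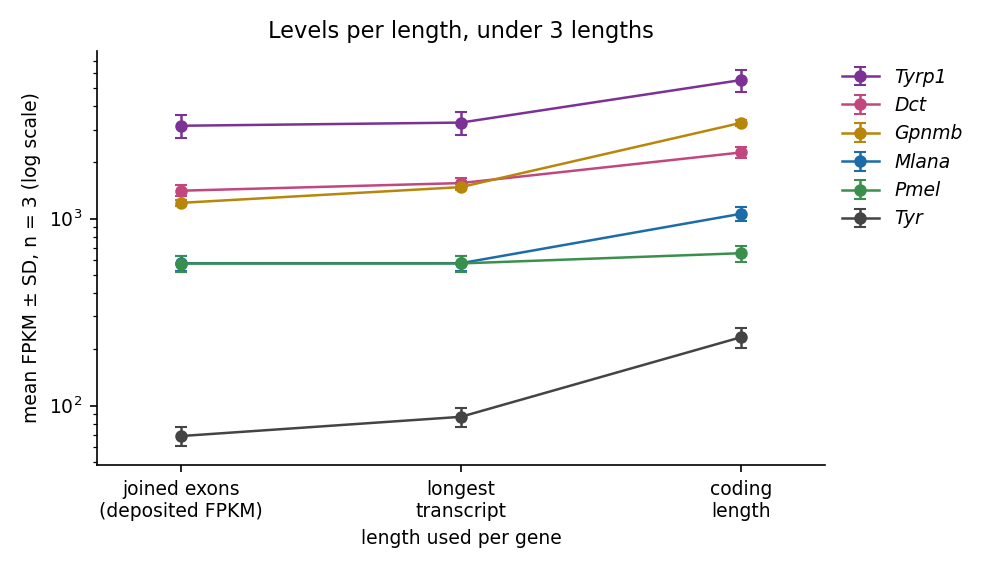
Mean FPKM ± SD of the 3 replicates on a log axis for the 6 genes, as deposited, and after the reads were divided by the longest transcript or by the coding length. The lines of *Dct* and *Gpnmb* cross between the longest transcript and the coding length, and *Tyr* stays lowest.

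The differences between replicates were examined next. At a log2 ratio of 0.32 or more in either direction, 2 of the 6 genes differed between replicates 3 and 4, *Tyrp1* (-0.38) and *Tyr* (-0.33), against 48.0% of the 10007 genes at 1 FPKM or more in every replicate. Between replicates 1 and 3, only *Tyrp1* did (0.33), against 13.5% of genes. Between replicates 1 and 4 none of the 6 did, against 22.9%. Their CVs ran from 3.64% for *Gpnmb* to 13.8% for *Tyrp1*, and the median over the 10007 genes was 11.4%.

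Across these genes, which are not independent replicates, the log2 ratio of replicate 3 to replicate 4 rose with the GC content of the exons (Spearman's rho 0.78). The 6 genes lie at different places on this trend, with 37.3% GC in *Tyr*, 45.6% in *Tyrp1*, 47.5% in *Gpnmb*, 49.0% in *Dct*, 50.1% in *Mlana* and 53.8% in *Pmel*. *Pmel*, the richest in GC, had a log2 ratio of 0.28, and genes within 1 point of its GC content had a median of 0.25. *Tyr*, the poorest, had -0.33 where such genes had a median of -0.72, a smaller difference than in genes of like composition. *Mlana* had -0.26 against a median of 0.02, and *Gpnmb* 0.10 against -0.15. All 18 ratios, for 6 genes and 3 pairs of replicates, lay between the 10th and the 90th percentile of genes of the same GC content. The part of GC content in any single value was not tested.

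**Figure D4:**
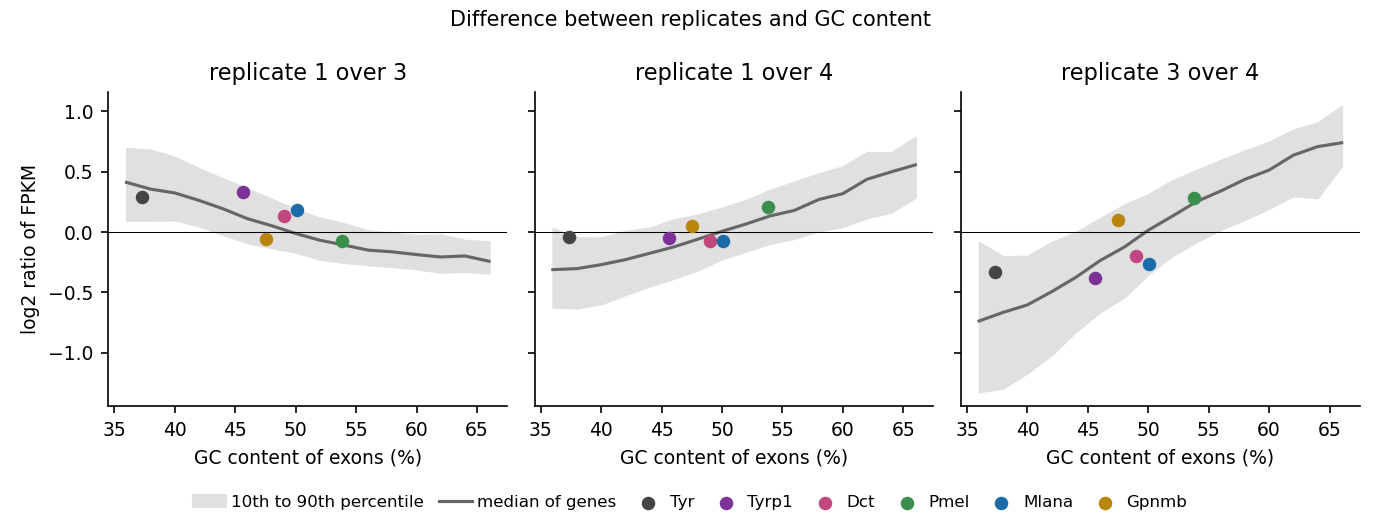
Log2 ratio of FPKM between each pair of replicates against the GC content of the exons in percent, with the 6 genes as points, the median over genes in bins of GC content as a line and the 10th to 90th percentile as a band. Every point lies inside or at the edge of the band, and the trend is steepest for replicates 3 and 4, where *Pmel* is at 0.28 and *Tyr* at -0.33.

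The genes next to the 6 are given as a description of their surroundings. Each gene was set beside the nearest protein-coding gene on either side that does not overlap it. All 12 such genes were lower than their neighbour, as nearly every gene in the files would be. None was among the highest 1000, which hold 4.41% of all genes, and 4 of the 12 had means below 1 FPKM, where 54.9% of all genes lay. These counts therefore do not set the flanking genes apart from genes in general. *Tyr* lay between *Nox4*, an NADPH oxidase gene 27.7 kb away with a mean of 0.447 FPKM, and *Grm5*, a glutamate receptor gene 109.0 kb away that was listed at 0. On the side of lower coordinates, *Tyrp1* had no protein-coding gene before *Ptprd*, 2622.2 kb away and at 0.01 to 0.02 FPKM. *Dct* stood between *Gpc6* (1.13 ± 0.12 FPKM) and *Tgds* (6.91 ± 1.68 FPKM, SD, n = 3).

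The closest of the 12 flanking genes was *Cdk2*, a cell cycle kinase gene on the opposite strand whose start lies 1.21 kb from that of *Pmel*. It reached 51.1 ± 6.9 FPKM (SD, n = 3). The fold of 11.3 between *Pmel* and *Cdk2* was the smallest among the 12 pairs of a gene and its flanking gene. On the other side *Wibg* was at 15.6 ± 0.2 FPKM. *Mlana* was 35.6 times as high as *Ermp1*, 49.5 kb away. *Gpnmb* was 421.2 times as high as *2410003K15Rik*, only 2.87 kb away.

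**Figure D5:**
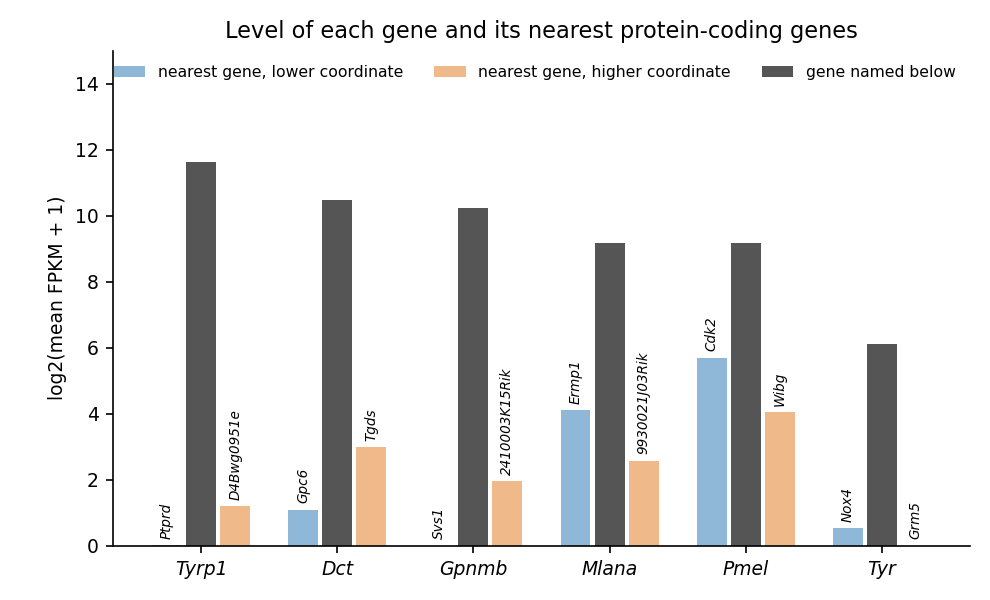
Mean level as log2(mean FPKM + 1) of each of the 6 genes (dark bars) and of the nearest protein-coding gene at lower and at higher coordinates (light bars). Each dark bar is the tallest of its 3, and the tallest light bar is that of *Cdk2* at a mean of 51.1 FPKM.

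Genes with the most similar values were found by Euclidean distance in log2(FPKM + 1) over the 3 replicates of the single condition, so likeness here is mostly likeness in level. The nearest to *Tyrp1* was *Sparc* (distance 0.33, mean 3002.2 FPKM), which encodes a secreted matrix protein. *S100a11* was nearest to *Dct* (0.30), and *Gpnmb* was the next (0.43). For *Gpnmb* it was *Cd81* (0.17), a tetraspanin gene, for *Pmel* *Gm2000* (0.09) and *Rhoc* (0.10), for *Mlana* *Rpl4* (0.12) and *Ctsb* (0.15), and for *Tyr* *Zfp207* (0.10) and *Stt3a* (0.11). The nearest gene to *Tyrp1* was farther away than that of any of the other 5.

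Other genes of the pathway were mostly lower than the 6. Of 15 genes for transporters, copper supply and related enzymes, 3 were among the highest 1000, namely *Mif*, *Atox1* and *Gpx4*. That category holds 4.41% of all genes. *Mif* (368.4 ± 53.7 FPKM, SD, n = 3), a cytokine gene whose product has tautomerase activity, was the highest of them. The melanosomal transporter genes *Slc45a2* (65.5 ± 4.2), *Slc24a5* (42.7 ± 1.2) and *Oca2* (14.5 ± 1.2 FPKM, SD, n = 3) all had lower means than *Tyr* in deposited FPKM. *Slc45a2* was within the spread of *Tyr*, and in replicate 3 it was the higher of the pair, at 68.13 against 59.2 FPKM. *Atp7a*, which encodes the pump that delivers copper to tyrosinase, was at 7.14 ± 0.84 FPKM and the copper chaperone gene *Atox1* at 154.2 ± 4.5 (SD, n = 3). *Th*, which encodes the tyrosine hydroxylase of neurons, had a value above 0 in 1 replicate, of 0.02 FPKM.

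Of 16 genes that act on PMEL or in sorting to melanosomes, 7 were among the highest 1000, which hold 4.41% of all genes. *Cd63*, for the tetraspanin that sorts PMEL in endosomes, was at 309.4 ± 23.1 FPKM, *Rab38* at 254.1 ± 18.8 and *Apoe* at 125.2 ± 15.9. All were higher than *Tyr* in deposited FPKM. The list genes were not recomputed under other lengths, and *Tyr* itself was at 232.1 FPKM per coding length, so these comparisons hold for the deposited values only. *Bace2*, whose product cleaves PMEL, was at 8.90 ± 0.31 FPKM (SD, n = 3), so its substrate's transcript was far more abundant. Among 10 transcription factor genes, *Sox10* (467.9 ± 85.7 FPKM) was the only one in the highest 1000, against the same 4.41% of all genes. *Mitf* was at 22.1 ± 4.7 and *Tfap2a* at 37.2 ± 1.5 FPKM (SD, n = 3).

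The label of the cells was set against markers. Of 6 melanocyte markers, 5 had means of at least 1 FPKM, a level below which 54.9% of all genes lay. *Kit*, the receptor for stem cell factor, was the exception at 0.59 to 0.78 FPKM. *Dct*, *Tyr*, *Tyrp1* and *Pmel* are also used by the retinal pigment epithelium, and *Gpnmb* by macrophages and osteoclasts. The 6 markers of retinal pigment epithelium summed to 1.27 to 1.32 FPKM, nearly all of it *Rlbp1*, and *Otx2* was listed at 0. The 7 markers of macrophages and osteoclasts summed to 0.06 to 0.08 FPKM, with *Ptprc*, *Aif1* and *Itgam* listed at 0 in every replicate. The 6 keratinocyte markers summed to 0.36 to 0.70 FPKM and the 5 fibroblast markers to 1.56 to 1.93 FPKM.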

How the data were processed

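RNA of 3 untreated melan-a replicates was sequenced from stranded libraries. By the methods and the submitters' processing notes, STAR 2.3.0e aligned the trimmed reads to mm9, and HTSeq 0.5.3p3 counted them on Ensembl gene models after rRNA reads had been taken out. The authors deposited FPKM values scaled by TMM, with 2 decimals. The gene length behind them is not given in the sources used here, and FPKM carries no counts, so no count test was run.

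Symbols, positions, lengths and GC content were read from Ensembl release 65 on mm9, an earlier release than the one the authors counted on, where 22324 of the 22698 genes were found. Lists were matched by symbol or RefSeq synonym. Library sizes were estimated from genes of 1 transcript and at most 700 bases, whose low FPKM values must give whole reads. Reads per gene follow from them and are estimates. Ranks use the mean of the replicates. Replicate ratios used genes of at least 1 FPKM in every replicate. Proteins were compared by global alignment (BLOSUM62).

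The 6 genes and all lists were chosen with earlier results of these data known. A further marker list is not reported here. Named genes are the 6, those of the lists, the nearest 3 of each in profile and, added after the values were seen, flanking and overlapping genes and *Cdkn2a*. Alternatives were the median, each replicate left out, values rescaled to a sum of 1000000, subsets of genes, other lengths, a pseudocount of 0.1 and the median of genes of the same GC content. The library size estimate, the medians by GC content, the fold call and the sign-flip test were tested on simulated data, and the other steps were not. The simulated libraries were built on the same gene lengths, so that test could not show a mismatch between lengths and library sizes. The computations used scipy 1.17.1, pandas 2.3.3 and numpy 2.4.6 under Python 3.11.15, and matplotlib 3.10.9 for plots.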

Additional observations from a re-analysis of the deposited data

How the results depend on the processing

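The count of 5 genes among the highest 1% held under all 8 alternatives, and that of 6 among the highest 1000 under 7 of 8, with 5 when replicate 4 was left out. Of the steps in the order of levels, *Dct* minus *Gpnmb* was -0.53 per coding length and 0.07 on the longest transcript (log2 difference). *Mlana* minus *Pmel* was -0.0035 with the median over replicates, and between -0.13 and 0.14 with each replicate left out. The other 3 steps kept their direction under every alternative run. Only the other lengths could have reversed them, since each step had that direction in all 3 replicates. *Pmel* minus *Tyr* fell to 1.49 per coding length. After the values were rescaled to a sum of 1000000, the number of the 6 genes at a log2 ratio of 0.32 or more was 2 between replicates 1 and 3 and 4 between replicates 3 and 4. With the median of genes of the same GC content subtracted it was 0 and 1, and the log2 ratio of *Tyr* between replicates 3 and 4 was 0.39. In both cases the cause was not tested. Mean levels moved by less than 1 SD with the median or with any replicate left out. With 3 values they cannot move further than that, so this says nothing about how stable the levels are. The rescaling changes the unit, and other lengths moved 3 of the 6 means (longest transcript) or all 6 (coding length) by more than 1 SD. No paired analysis was possible because there is a single group, so no groups share replicate numbers. The steps between genes were taken within each replicate. With 3 replicates no test could go below p = 0.25 by exact permutation, whatever the depth.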
